A study of Mus musculus with 8 samples.

Results

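A liver cell detects foreign chemicals with a small set of proteins, and 10 genes that encode them are described here: the nuclear receptors Nr1i3 (CAR), Nr1i2 (PXR), Rxra (their shared partner RXR-alpha) and Nr3c1 (the glucocorticoid receptor), the aryl hydrocarbon receptor pair Ahr and Arnt, and the NRF2 system made of Nfe2l2 (NRF2), Keap1, Mafg and Bach1. They were chosen by gene symbol, as known sensors of xenobiotics and their partners. All 10 were among the 15210 genes listed for the livers, and all 10 passed the filter on low values that left 12008 genes to test. The question was whether the RNA of the sensors changed in livers in which RNA of their targets did.

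The livers came from 8 female F1-TKm30 mice, aged 17 or 21 weeks. MOCA mice (n = 4) received 4,4'-methylenebis(2-chlorobenzenamine), a curing agent of the aromatic amine class, over 4 weeks at a dose of 0.05%, and control mice (n = 4) received 0%. The mice of both groups are of the immunodeficient NOG background and carry a herpes simplex virus thymidine kinase (HSVtk mutant clone 30) driven by the enhancer and promoter of mouse transthyretin, a gene of hepatocytes. The labels give no route of dosing, the age of each single mouse is not stated, and 1 treatment label names C57BL mice in place of the strain label. Each mouse gave 1 library with 15024945 to 15970453 reads in the MOCA group, and with 16077424 to 17101844 reads in the control group, so that each MOCA library was shallower than each control library. Values are normalised read counts: reads that the authors scaled by library depth and a TMM factor (CPM), where 1 read was worth 0.0581 to 0.0648. The members had 336 to 10059 reads per library.

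Several of these proteins wait in an inactive state and are switched on by a change of shape, place or stability. CAR and AHR rest in the cytoplasm with chaperones, and move to the nucleus when a ligand or an indirect signal such as phenobarbital reaches the cell. PXR binds ligands directly, and NRF2 is held and sent for degradation by KEAP1 until electrophiles or oxidants modify KEAP1. The level of their own RNA is therefore a separate measurement from their activity, which is usually read from target genes such as the P450s Cyp2b10 (CAR), Cyp3a11 (PXR) and Cyp1a1 (AHR) and the quinone reductase Nqo1 (NRF2).

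None of the 10 sensor and partner genes was called in MOCA livers against control livers (limma, with p-values adjusted by Benjamini and Hochberg over all tested genes and a limit of 0.05; 0.666% of all tested genes were called). By edgeR, which called 0.683% of tested genes, and by DESeq2, which called 3.54%, the count was also 0 of 10. At an unadjusted p under 0.05 there were 2 of 10, Arnt and Nfe2l2, both higher in MOCA livers. Nfe2l2 was just under the limit at 0.0499 (limma). Over 22 fits, the main one and 21 others, its unadjusted p was under 0.05 in 12, and that of Arnt in all 22. Of all tested genes 17.5% had an unadjusted limma p under 0.05, 9.42% on the higher and 8.05% on the lower side. For each of the 10 genes the MOCA and control values overlapped; the groups did not overlap in 10.5% of tested genes, with MOCA above in 5.5% and below in 4.96%. Each fold change divides MOCA by control, on a scale of log2(value + 1), with a 95% confidence interval from limma. The intervals of the 10 genes together ran from 0.803-fold (Nr1i3, lower bound) to 1.38-fold (Arnt, upper bound), so that each interval left out a doubling and a halving of the RNA. The median absolute log2 fold change of the 10 genes was 0.10, and that of all 12008 tested genes was 0.11.

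**Figure D1:**
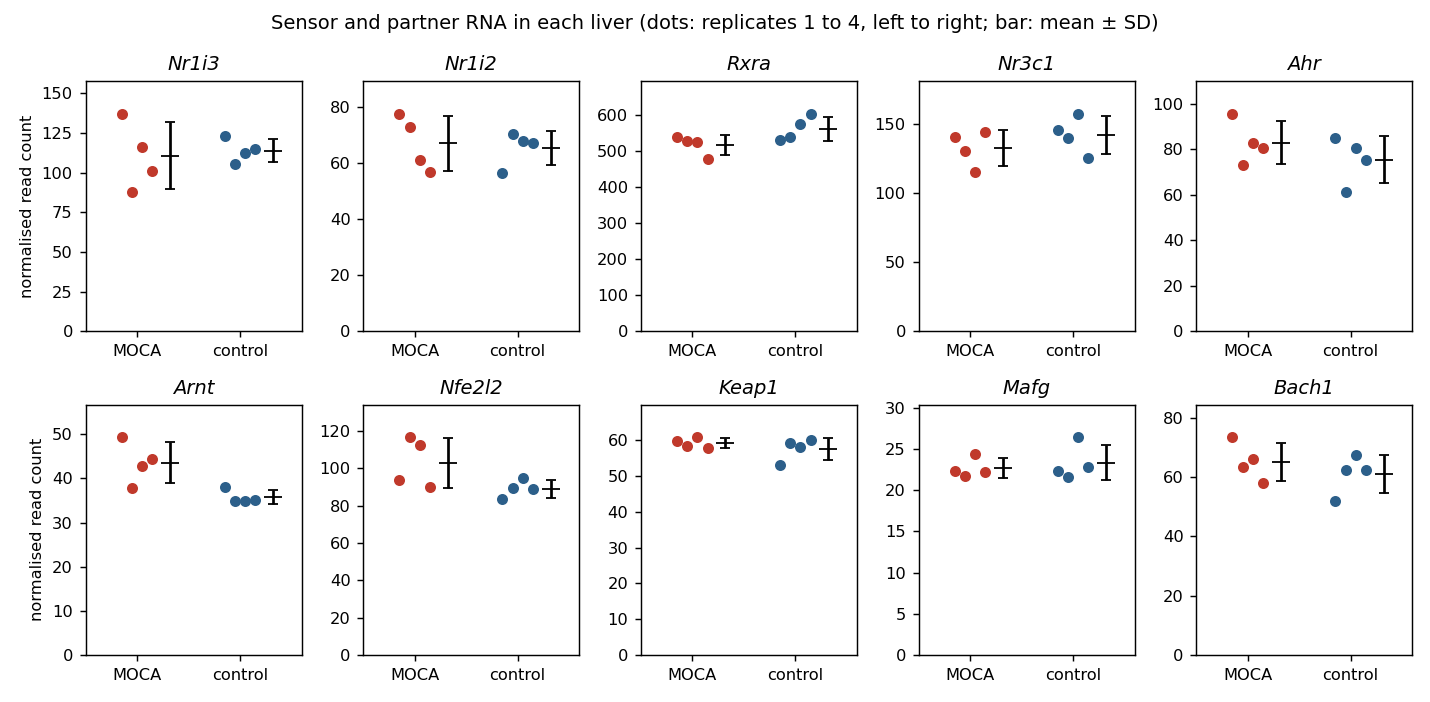
Normalised read count (vertical axis from 0) of each of the 10 genes in 4 MOCA livers (red) and 4 control livers (blue), 1 dot per mouse, with the mean ± SD beside the dots. The groups overlap in each panel, and Arnt comes nearest to separation, with MOCA replicate 2 at 37.8 just under control replicate 1 at 38.1.

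Nr1i3 encodes CAR, the receptor through which phenobarbital-like compounds induce Cyp2b genes (chromosome 1, 171213934 to 171218845, build mm10). Its normalised read count was 137, 88.06, 116 and 101.2 in MOCA replicates 1 to 4, against 123, 105, 112 and 115 in control replicates 1 to 4. The highest and the lowest of the 8 livers were both MOCA livers, and the 4 control livers lay between them. The mean was 110.7 ± 21.1 in MOCA livers and 114 ± 7.28 in control livers (SD, n = 4 each), a log2 fold change of -0.06 (SE 0.12, interval -0.32 to 0.20, limma adjusted p = 0.847). The coefficient of variation was 19.1% in MOCA livers and 6.40% in control livers; the difference in spread was not tested. Without MOCA replicate 2 the log2 fold change was 0.05, so the sign rests on that mouse. In the GENCODE annotation of the same build 3304 of the 4414 exonic bases of Nr1i3 overlap exons of Tomm40l on the opposite strand. The libraries were directional, but no source used here gives the strand setting of the counting, so reads of the 2 genes may not be told apart. Tomm40l, a homolog of a mitochondrial import channel, averaged 51.5 ± 2.77 in MOCA livers and 54.2 ± 13.4 in control livers (limma adjusted p = 0.915).

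Nr1i2 encodes PXR, which binds many drugs and steroids and induces Cyp3a genes (chromosome 16, 38248349 to 38294849). It had 77.5, 72.8, 60.8 and 56.8 in MOCA replicates 1 to 4, against 56.4, 70.3, 67.8 and 66.9 in control replicates 1 to 4. MOCA replicate 1 was the highest of the 8 livers and control replicate 1 the lowest, and the log2 fold change was 0.03 (SE 0.11, interval -0.21 to 0.26, limma adjusted p = 0.922).

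Rxra encodes the partner with which CAR and PXR bind DNA (chromosome 2, 27676445 to 27763319). It had 538, 528, 524 and 477 in MOCA livers, against 529, 539, 574 and 604 in control livers. MOCA livers were lower in 15 of the 16 pairs of a MOCA and a control liver, with MOCA replicate 1 above control replicate 1 as the exception. The means were 517 ± 27.2 in MOCA livers and 561 ± 33.9 in control livers, a log2 fold change of -0.12 (SE 0.07, interval -0.28 to 0.04, limma adjusted p = 0.441). The other retinoid X receptors also did not pass: Rxrb had 33.5 ± 2.99 in MOCA livers and 37.5 ± 1.47 in control livers (limma adjusted p = 0.315). Rxrg, which was low, had 4.19 ± 1.03 in MOCA livers and 4.72 ± 0.299 in control livers (limma adjusted p = 0.592).

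Nr3c1 encodes the glucocorticoid receptor, which responds to corticosterone and is known to support the transcription of the CAR and PXR genes (chromosome 18, 39410545 to 39519421). It had 140.3, 130.4, 115 and 144 in MOCA livers, against 145, 139.8, 157 and 125 in control livers. The groups overlapped, and the lowest liver was a MOCA liver and the highest a control liver. The log2 fold change was -0.10 (SE 0.09, interval -0.30 to 0.10, limma adjusted p = 0.620).

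Ahr encodes the receptor for dioxins and planar aromatic compounds (chromosome 12, 35497979 to 35534989). It had 95.6, 72.9, 82.7 and 80.4 in MOCA livers, against 84.9, 61.4, 80.5 and 75.1 in control livers. The highest liver was a MOCA liver and the lowest a control liver, with the other 6 livers mixed between them. This gave a log2 fold change of 0.14 (SE 0.11, interval -0.10 to 0.38, limma adjusted p = 0.555). Leaving out a single mouse lowered it to 0.067 (MOCA replicate 1) or 0.043 (control replicate 2). The gene shares 127 exonic bases with an antisense transcript that was not listed.

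Arnt encodes the partner that AHR needs to bind DNA and that also serves the hypoxia factors (chromosome 3, 95434367 to 95497240). It had 49.3, 37.8, 42.8 and 44.4 in MOCA livers, against 38.1, 34.9, 34.9 and 35.0 in control livers. MOCA livers were higher in 15 of 16 pairs. The means were 43.6 ± 4.73 in MOCA livers and 35.7 ± 1.58 in control livers, and the log2 fold change of 0.27 (SE 0.09, interval 0.09 to 0.46) was the largest of the 10 genes in absolute size. The unadjusted p of 0.00790 became an adjusted p of 0.151 with limma, and the gene did not pass. Over the other 21 settings tried, its log2 fold change was between 0.21 and 0.34 and its adjusted p between 0.0916 and 0.310. Arntl, which is named after Arnt but acts in the circadian clock, had 36.9 ± 3.88 in MOCA livers and 33.2 ± 3.66 in control livers (limma adjusted p = 0.487).

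Nfe2l2 encodes NRF2, the activator of antioxidant and conjugation genes (chromosome 2, 75675513 to 75704663). It had 93.6, 117, 113 and 89.8 in MOCA livers, against 83.4, 89.3, 94.7 and 88.8 in control livers. MOCA replicates 2 and 3 were above the control range, and MOCA replicates 1 and 4 lay within it. The means were 103 ± 13.4 in MOCA livers and 89.0 ± 4.61 in control livers, a log2 fold change of 0.20 (SE 0.09, interval 0.00 to 0.40), with an unadjusted p of 0.0499 and a limma adjusted p of 0.286. Without MOCA replicate 2 the log2 fold change was 0.14, with a limma adjusted p of 0.499.

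Keap1 encodes the adaptor that presents NRF2 for degradation (chromosome 9, 21229730 to 21239332). It had 59.6, 58.4, 60.8 and 57.8 in MOCA livers, against 53.2, 59.2, 58.0 and 59.9 in control livers. It was the steadiest of the 10 genes within the MOCA group, with a coefficient of variation of 2.24%, against 5.30% in control livers. The log2 fold change was 0.04 (SE 0.07, interval -0.10 to 0.18, limma adjusted p = 0.803). The gene shares 510 exonic bases with an antisense transcript that was not listed. Cul3, the ubiquitin ligase scaffold that works with KEAP1, had 62.4 ± 1.22 in MOCA livers and 62.1 ± 4.33 in control livers (limma adjusted p = 0.954).

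Mafg encodes a small MAF protein, the partner with which NRF2 binds DNA (chromosome 11, 120625117 to 120634955). It had 22.3, 21.7, 24.4 and 22.2 in MOCA livers, against 22.4, 21.6, 26.4 and 22.8 in control livers. The MOCA range lay inside the control range. The log2 fold change was -0.04 (SE 0.08, interval -0.22 to 0.15, limma adjusted p = 0.863), and its sign turned when columns were rescaled to equal sums and without control replicate 3. Another small MAF gene, Mafk, had 18.1 ± 2.95 in MOCA livers and 16.3 ± 2.36 in control livers (limma adjusted p = 0.629). The annotation has 124 exonic bases of Mafg on the same strand as exons of its neighbour Sirt7, a sirtuin deacylase with 19.4 ± 1.25 in MOCA livers and 19.7 ± 1.5 in control livers (limma adjusted p = 0.910).

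Bach1 encodes a repressor that occupies the same sites as NRF2 and leaves them when heme binds it (chromosome 16, 87698954 to 87733346). It had 73.3, 63.2, 65.9 and 58.0 in MOCA livers, against 51.9, 62.2, 67.2 and 62.3 in control livers. The lowest liver was control replicate 1 and the highest MOCA replicate 1. The log2 fold change was 0.10 (SE 0.10, interval -0.11 to 0.31, limma adjusted p = 0.642).

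Since the NRF2 protein and its partners bind antioxidant response elements, and AHR with ARNT binds a short core, promoters were searched for both. The windows ran from 250 bases before to 50 bases after a transcript start (RefSeq, GRCm38.p6, the mm10 assembly), and 8 of the 10 genes matched by symbol, with 9 windows; Ahr and Nr3c1 did not match. The element core TGACNNNGC, on either strand, was in the windows of 3 of the 8 genes, Nfe2l2, Arnt and Mafg, and in 12.4% of all 32851 windows. The AHR and ARNT core GCGTG was in those of 4 of the 8, Arnt, Keap1, Mafg and Bach1, and in 32.4% of all windows. The 250 bases before the start are printed for the 3 genes with the first core, because they include both genes with an unadjusted p under 0.05 and a gene whose values hardly differed between the groups. Capitals mark matches of either core, read 5′ to 3′ on the strand of the gene; a match on the other strand appears as its reverse complement.
Nfe2l2, chr2:75704664-75704913, minus strand: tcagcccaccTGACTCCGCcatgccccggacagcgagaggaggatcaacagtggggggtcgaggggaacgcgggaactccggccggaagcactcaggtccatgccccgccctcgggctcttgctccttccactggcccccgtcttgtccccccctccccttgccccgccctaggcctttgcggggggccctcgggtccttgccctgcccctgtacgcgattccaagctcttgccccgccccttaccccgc
Arnt, chr3:95434140-95434389, plus strand: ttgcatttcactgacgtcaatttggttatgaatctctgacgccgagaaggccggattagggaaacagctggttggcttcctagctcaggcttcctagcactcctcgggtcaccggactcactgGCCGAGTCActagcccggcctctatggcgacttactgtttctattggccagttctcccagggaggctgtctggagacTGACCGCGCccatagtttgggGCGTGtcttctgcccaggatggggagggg
Mafg, chr11:120633548-120633797, minus strand: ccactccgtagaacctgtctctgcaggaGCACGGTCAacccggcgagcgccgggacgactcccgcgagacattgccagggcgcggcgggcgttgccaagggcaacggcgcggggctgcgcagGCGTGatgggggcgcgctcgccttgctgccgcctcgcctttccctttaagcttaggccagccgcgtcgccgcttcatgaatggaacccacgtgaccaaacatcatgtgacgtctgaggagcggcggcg

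Distances are from the transcript start of each window, which need not be the outer end of the gene. The printed bases of Mafg lie wholly inside its stated span, and those of Arnt run past its stated first base. The element core began 240 bases before the start in Nfe2l2, 222 bases before it in Mafg, and 127 and 50 bases before it in Arnt. The core GCGTG began 29 bases before the start in Arnt and 128 bases before it in Mafg, and the matches of both cores did not overlap in these windows. The 3 genes with the element core had log2 fold changes of 0.20 (Nfe2l2), 0.27 (Arnt) and -0.04 (Mafg), none of them called. A match of letters is a description and not a site of binding.

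Per kilobase of merged exon (GENCODE, same build), Rxra stood above the other 9 genes, with 94.6 ± 4.97 normalised reads per kb in MOCA livers and 102.8 ± 6.2 in control livers. Next, by the mean level per kb over the 8 livers, came Nr1i2 at 25.9, Nr1i3 at 25.4 and Nfe2l2 at 25.3, whose ranges over the livers overlapped, so that their order is not set; the level of Nr1i3 carries the limit of the exons shared with Tomm40l. Nr3c1 at 17.8 per kb, Ahr at 12.8, Keap1 at 12.4 and Bach1 at 10.2 formed a further series in which neighbours overlapped. Arnt at 4.95 per kb and Mafg at 4.10 were the lowest and overlapped as well. Of the neighbours in this order, only Rxra and Nr1i2, Nfe2l2 and Nr3c1, and Bach1 and Arnt had ranges that did not overlap. The order below Rxra depends on the length used: per kilobase of the median coding transcript, Nr1i3 at 81.0 and Nr3c1 at 72.5 came next after Rxra. By that length Nfe2l2 stood at 38.8, Nr1i2 at 25.9 and Mafg at 23.6, and Bach1 was lowest at 10.7.

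**Figure D2:**
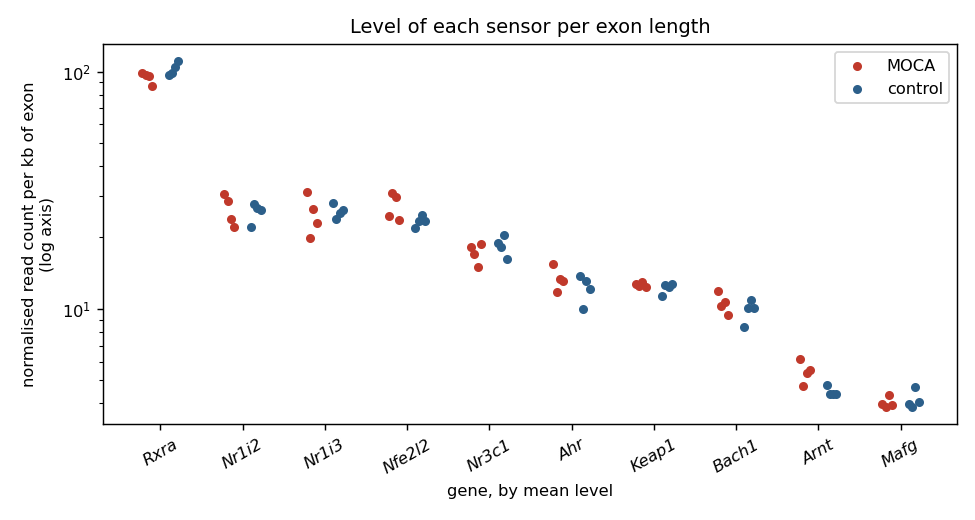
Normalised read count per kb of merged exon (vertical log axis) of the 10 genes, ordered by mean level, with 1 dot per liver (MOCA red and left, control blue and right). Rxra is highest at about 98.7 over the 8 livers. By merged exon length Nr1i2, Nr1i3 and Nfe2l2 share a level, and Arnt and Mafg are lowest.

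Some genes in the joint list of CAR and PXR targets and in the list of NRF2 targets changed, and most targets did not pass. The joint list does not separate CAR from PXR, and which sensor acted on a called gene was not tested. Of 93 tested genes in 4 target lists, 7 rose, 1 fell and 85 did not pass (limma). This was a share of 8.6% called, against 0.666% of all tested genes. With edgeR 8 were called and with DESeq2 17, against 0.683% and 3.54% of all tested genes. The median absolute log2 fold change of the 93 targets was 0.23, against 0.10 for the sensors and partners and 0.11 for all tested genes. The target lists were chosen with earlier results of these data known, so these shares are a description.

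**Figure D3:**
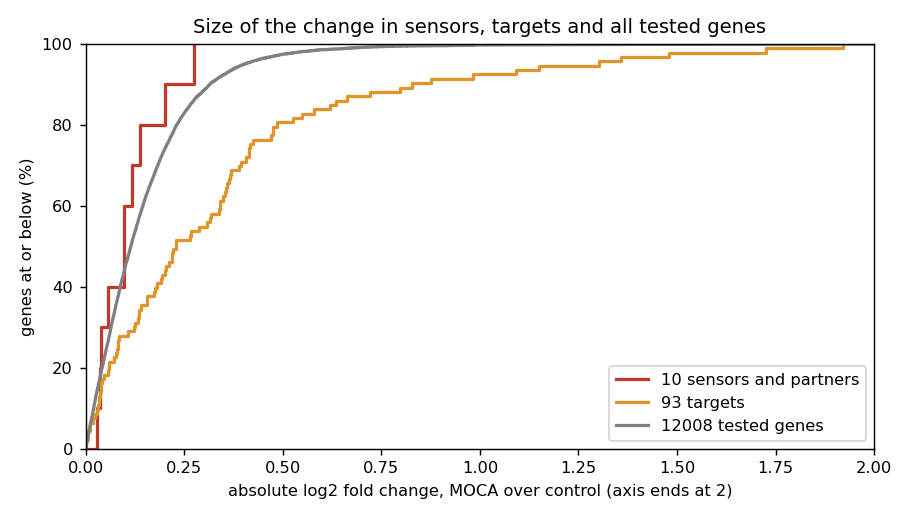
Share of genes (vertical axis, percent) whose absolute log2 fold change is at or below the value on the horizontal axis, for the 10 sensors and partners (red), the 93 tested targets (orange) and the 12008 tested genes (grey). The red line ends at 0.27, the value of Arnt, while the orange line runs on to 1.92, the value of Cyp2b10.

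Among CAR and PXR targets, 4 of 32 tested genes rose, 1 fell and the other 27 did not pass with limma. This was 15.6% called, against 0.666% of all tested genes. With edgeR 5 were called and with DESeq2 6, against 0.683% and 3.54% of all tested genes. Of the log2 fold changes 16 lay on each side of 0. Cyp2b10, the P450 most often used to read CAR activity, had 166, 159, 106 and 137 in MOCA livers, against 21.4, 44.2, 46.5 and 38.6 in control livers, so the groups were far apart (log2 fold change 1.92, SE 0.22, limma adjusted p = 0.00468). In the same mice Nr1i3 itself differed in the mean by -0.06. MOCA replicate 1 was the highest of the 8 livers for both Nr1i3 (137) and Cyp2b10 (166). The liver with the lowest Nr1i3, MOCA replicate 2 at 88.1, had a Cyp2b10 value of 159, the second highest. The liver with the lowest Cyp2b10 of all, control replicate 1 at 21.4, had the second highest Nr1i3, 123. Nr1i3 values here may include reads of Tomm40l.

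Cyp2c29, a further CAR target of the P450 family, had 3146, 3072, 3125 and 3417 in MOCA livers, against 917, 1499.5, 1611 and 1255 in control livers (log2 fold change 1.30, SE 0.15, limma adjusted p = 0.00534). The retinal dehydrogenase Aldh1a1 had 1199 ± 123 in MOCA livers and 757 ± 89.5 in control livers (0.66, limma adjusted p = 0.0202). Its neighbour Aldh1a7 had 221 ± 31.4 in MOCA livers and 126 ± 31.7 in control livers (0.83, limma adjusted p = 0.0366). Slco1a4, an organic anion transporter often given as a PXR target, fell to 149 ± 16.7 in MOCA livers, against 218 ± 23.0 in control livers (-0.55, limma adjusted p = 0.0328). Leaving out 1 mouse ended the call of Aldh1a1 in 3 of the 8 fits, of Aldh1a7 in 7 and of Slco1a4 in 6, while Cyp2b10 and Cyp2c29 were called in all 8. Close members of these families may share reads, and how the counting split them is not given.

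Other genes that CAR and PXR are known to induce did not pass. Cyp3a11, the P450 most used to read PXR, had 3521, 5576, 5412 and 3872 in MOCA livers, against 3910.5, 5748, 4276 and 4256 in control livers (log2 fold change 0.00, interval -0.38 to 0.39, limma adjusted p = 0.996). Both groups spread over the same range. Por, the reductase that passes electrons to P450s, had 403 ± 89.9 in MOCA livers and 530.4 ± 63.4 in control livers (-0.41, limma adjusted p = 0.174). Alas1, the first enzyme of heme synthesis, had 196 ± 65.7 in MOCA livers and 299 ± 91.1 in control livers (-0.62, limma adjusted p = 0.214).

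No AHR target of the 9 tested passed with limma, edgeR or DESeq2, against 0.666%, 0.683% and 3.54% of all tested genes. The unadjusted p was under 0.05 for 2 of them, against 17.5% of all tested genes. Cyp1a2, a liver P450 under AHR control, had 400.1, 345, 441 and 438 in MOCA livers, against 352, 471, 413 and 437 in control livers (log2 fold change -0.04, interval -0.27 to 0.19, limma adjusted p = 0.884). Tiparp, which limits AHR, had 12.7, 12.5, 10.8 and 12.5 in MOCA livers, against 14.4, 16.2, 18.9 and 14.4 in control livers (-0.37, limma adjusted p = 0.120). All 4 MOCA values of Tiparp lay below the control values, without a call. Ahrr, the repressor of AHR, was at most 0.258 in MOCA livers and 0.232 in control livers, and Cyp1a1 was at most 0.516 in MOCA livers and 0.679 in control livers; both were under the level needed for testing.

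Of 36 tested NRF2 targets 3 rose and the other 33 did not pass with limma. This was 8.33% called, against 0.666% of all tested genes. With edgeR 3 were called and with DESeq2 11, against 0.683% and 3.54% of all tested genes. The unadjusted limma p was under 0.05 for 15 on the higher and 1 on the lower side, against 9.42% and 8.05% of all tested genes. Values leaned to the MOCA side in 34 of the 36, against 51.1% of all tested genes. Gstm3, a mu-class glutathione S-transferase, had 119, 174, 113 and 179 in MOCA livers, against 47.2, 92.0, 42.2 and 50.8 in control livers (1.36, SE 0.23, limma adjusted p = 0.0270). Gstm4, of the same cluster of genes, had 89.1 ± 11.3 in MOCA livers and 48.9 ± 11.8 in control livers (0.88, limma adjusted p = 0.0328). Close mu-class genes may share reads as well, and Gstm1 was far more abundant, at 1402 to 2679 over the livers. Control replicate 2 was the highest control liver for Gstm1, Gstm3 and Gstm4, and sharing of reads was not tested. Aox1, an aldehyde oxidase, had 122, 122, 139 and 126 in MOCA livers, against 80.9, 89.6, 83.8 and 84.6 in control livers (0.58, SE 0.07, limma adjusted p = 0.00534). With each mouse left out in turn, Aox1 stayed called 8 times of 8, and Gstm3 and Gstm4 3 times each. Nfe2l2 was highest in MOCA replicates 2 and 3, as were its targets Gstm1 and Gclc. Other targets had another order. Gstm3 and Gstm4 were highest in MOCA replicates 4 and 2, Aox1 and Srxn1 in MOCA replicates 3 and 4. Nqo1 was highest in MOCA replicates 4 and 3, Hmox1 in MOCA replicate 4 and Gclm in control replicate 2.

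Further NRF2 targets had higher means in MOCA livers without a call by limma or edgeR; DESeq2 called Gstm1 and Srxn1 of those named next. Gstm1, the most abundant of the mu-class genes here, had 2258 ± 347 in MOCA livers and 1567 ± 259 in control livers (0.53, limma adjusted p = 0.0984, DESeq2 adjusted p = 0.00651). Srxn1, which repairs peroxiredoxins, had 27.2 ± 2.82 in MOCA livers and 19.4 ± 3.22 in control livers (0.48, limma adjusted p = 0.0831, DESeq2 adjusted p = 0.0176). Nqo1 had 10.1, 9.22, 10.4 and 12.6 in MOCA livers, against 5.93, 9.53, 6.54 and 7.32 in control livers (0.49, limma adjusted p = 0.123). Of the genes of glutathione synthesis, Gclc had 506 ± 68.6 in MOCA livers and 445 ± 58.4 in control livers (0.18, limma adjusted p = 0.450), and Gclm 211 ± 13.8 and 205 ± 19.2 (0.04, limma adjusted p = 0.844) in the same order. Hmox1, the heme oxygenase that BACH1 represses, had 34.0 ± 5.0 in MOCA livers and 31.2 ± 4.87 in control livers (0.12, limma adjusted p = 0.666). None of the 8 called targets, which all matched a promoter window, held the core TGACNNNGC there, against 12.4% of all windows. The core GCGTG was in windows of 2 of the 8, Cyp2b10 and Aox1, against 32.4% of all windows. These are statements about letters in those windows alone, and the differences in share were not tested.

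**Figure D4:**
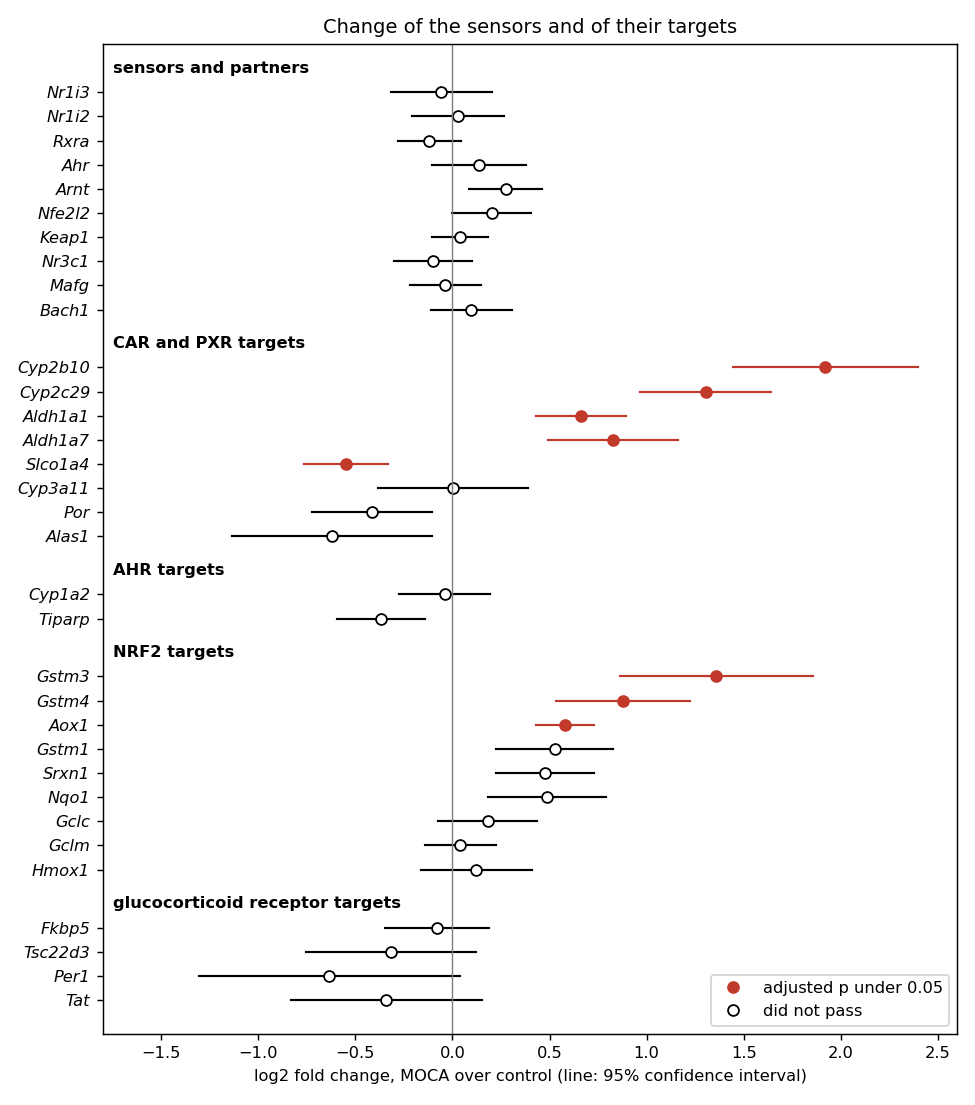
Log2 fold change of MOCA over control (horizontal axis, point) with its 95% confidence interval (line) for the 10 sensors and partners and for targets grouped by sensor; filled red points passed an adjusted p of 0.05 over all tested genes (limma) and open points did not. The sensors lie between -0.12 and 0.27, while the 8 called targets lie between -0.55 and 1.92.

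No glucocorticoid receptor target of the 18 tested passed with limma, edgeR or DESeq2, against 0.666%, 0.683% and 3.54% of all tested genes. An unadjusted p under 0.05 was found for 2 of them, against 17.5% of all tested genes. The log2 fold change was above 0 for 6 and below 0 for 12, with a median of -0.15. Fkbp5, a chaperone that the receptor induces, had 80.6, 58.0, 60.1 and 58.2 in MOCA livers, against 80.1, 64.6, 68.4 and 57.6 in control livers (-0.08, limma adjusted p = 0.787). Tsc22d3, known as GILZ, had 121 ± 32.6 in MOCA livers and 151 ± 37.0 in control livers (-0.32, limma adjusted p = 0.445). The clock gene Per1 had 32.3 ± 11.9 in MOCA livers and 51.3 ± 24.4 in control livers (-0.63, limma adjusted p = 0.313), and the tyrosine aminotransferase Tat had 1469 ± 443 and 1864 ± 542 (-0.34, limma adjusted p = 0.464) in the same order. Nr3c1 and these targets thus had overlapping groups.

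**Figure D5:**
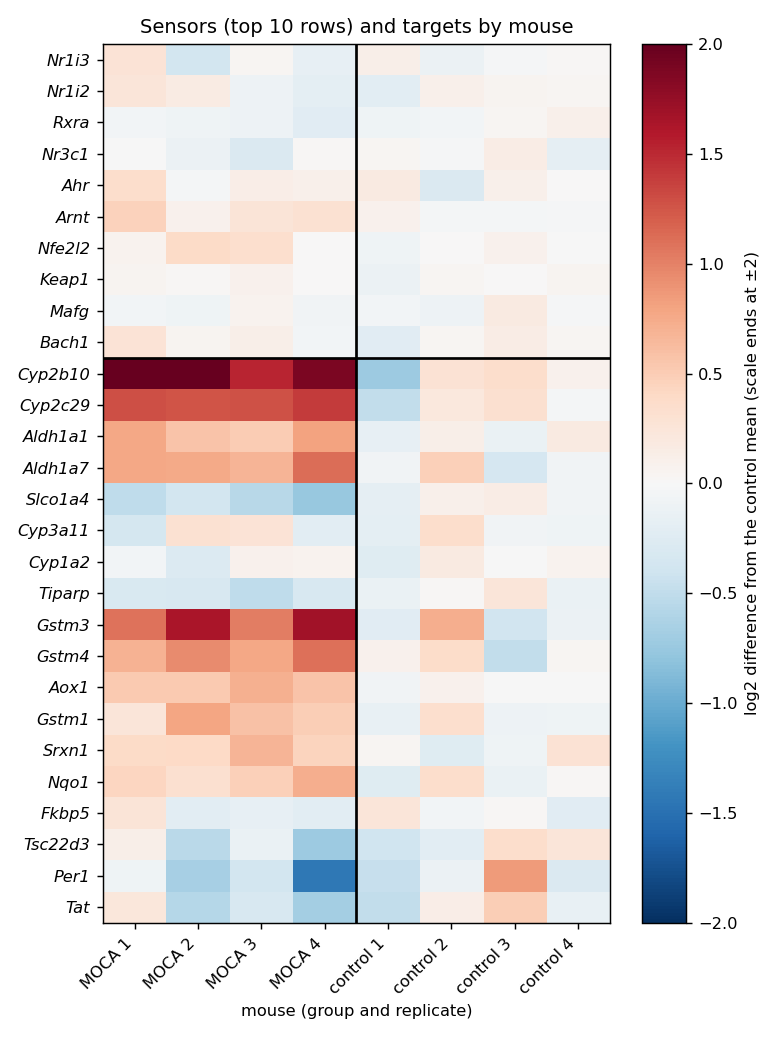
Log2 difference of each liver from the control mean (colour, scale ends at ±2) for the 10 sensors and partners (top rows) and 18 targets (lower rows), with 4 MOCA livers on the left and 4 control livers on the right. The sensor rows stay pale in both groups, while Cyp2b10, Cyp2c29, Gstm3 and Gstm4 are red in each MOCA liver.

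Proteins that work with the sensors were listed as 36 partners and co-regulators and 16 other ligand-activated receptors. Of the 34 and 15 tested, 0 passed with any of limma, edgeR and DESeq2, against 0.666%, 0.683% and 3.54% of all tested genes. The unadjusted p was under 0.05 for 5 of the 34 and 4 of the 15. Together this was 9 of 49, against 17.5% of all tested genes. The smallest p among the partners belonged to co-chaperones of HSP90: Ptges3 (p23), part of the resting AHR complex, had 171 ± 11.5 in MOCA livers and 146 ± 9.54 in control livers (0.23, limma adjusted p = 0.161). Fkbp4, a co-chaperone of steroid receptors, had 144 ± 7.88 in MOCA livers and 122 ± 14.95 in control livers (0.25, limma adjusted p = 0.197), with all MOCA values above the control values. Hsp90aa1, which holds AHR and the glucocorticoid receptor, had 476 ± 121 in MOCA livers and 345 ± 60.7 in control livers (0.45, limma adjusted p = 0.225). Among the other receptors the smallest p belonged to Ppard, with 17.2 ± 3.73 in MOCA livers and 12.2 ± 1.74 in control livers (0.46, limma adjusted p = 0.154). Thra, a thyroid hormone receptor, had 9.78 ± 0.744 in MOCA livers and 12.1 ± 0.753 in control livers (-0.28, limma adjusted p = 0.158). Esr1, the oestrogen receptor, had 64.2 ± 8.02 in MOCA livers and 53.2 ± 2.87 in control livers (0.26, limma adjusted p = 0.185).

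The genes whose pattern over the 8 livers was most like that of a sensor were sought among 9274 genes with a mean of at least 5, as a description of these libraries. Nr1i3 was most alike to Ldlrad4, Efna5 and Gpr39 (Pearson r = 0.95, 0.95 and 0.95). Nr1i2 was most alike to Bcap29, Aifm2 and Klhl3 (0.91, 0.91 and 0.90), Ahr to Rps6ka3, Trim41 and Safb2 (0.95, 0.94 and 0.93), and Nfe2l2 to Stx12, Ugt2b35 and Lactb (0.96, 0.92 and 0.91). Among the other 9 members, the most alike were Ahr for Nr1i3 (r = 0.66), Bach1 for Nr1i2 (0.77), Arnt for Ahr (0.72) and Keap1 for Nfe2l2 (0.49). The highest of 9274 coefficients over 8 livers is high by selection.

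The tissue was checked with markers. All 8 hepatocyte markers were listed, and their summed level was 90892 to 103631 in MOCA livers and 104099 to 119744 in control livers. These ranges did not touch. Each of the 8 had a log2 fold change below 0 (median -0.18), while 51.1% of all tested genes were above 0. With limma and edgeR 0 of the 8 was called, and with DESeq2 2. These methods called 0.666%, 0.683% and 3.54% of all tested genes. At an unadjusted limma p under 0.05 there were 2 of the 8, against 17.5% of all tested genes. Summed Kupffer cell markers were 289.7 to 394 in MOCA livers and 285 to 343 in control livers, sinusoidal endothelial markers 415 to 436 and 428 to 503.9, stellate cell markers 393 to 499 and 473 to 526, and bile duct markers 36.4 to 55.1 and 40.7 to 49.7, each in that order of groups. Of 8 lymphocyte markers 7 were not listed, and Cd8a was at most 0.194 in MOCA livers and 0.180 in control livers. In whole liver, fewer cells of a type and less RNA per cell cannot be told apart, and the part of these markers in the values of the sensors was not tested.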

How the data were processed

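Per the labels, RNA of 8 female livers (4 MOCA, 4 control) was extracted with RNeasy columns, and 200 ng was depleted of ribosomal RNA for directional MGIEasy libraries. The submitters' processing notes name mm10 and the tools edgeR, RSEM, Bowtie2 and Trimmomatic 0.38, in no order. The authors deposited 1 table of scaled signal (normalised counts). Divided by the worth of 1 read in its library, 100% of its values were whole to within 0.001, which gave back the reads; the scaling equals TMM-scaled CPM computed with edgeR. Groups were compared with limma 3.58.1 (R 4.3.3; eBayes with trend) after log2(value + 1), over the 12008 genes that reached 1 in no fewer than 4 of the 8 libraries. It was tried on simulated reads with changes larger than any estimated for the sensors and partners, so the trial does not cover changes as small as theirs. Alternatives were edgeR 4.0.16 and DESeq2 1.42.0 on the recovered reads, other pseudocounts, filters and scalings, other eBayes options, a replicate block and leaving out each mouse.

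The members and gene lists were chosen with earlier results of these data known. The text names the 10 members, every called target, 20 landmark targets, the 3 partners and 3 other receptors with the smallest p, and the 3 genes most alike to Nr1i3, Nr1i2, Ahr and Nfe2l2 each; any other gene was named after its values were seen. Labels number the mice but do not say more of their housing, so p-values measure the spread between these mice. Fold changes on the log2(value + 1) scale understate changes of low genes. Sequences and gene positions come from RefSeq (GRCm38.p6) and exon lengths from GENCODE M21. Columns not used: 0.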

Additional observations from a re-analysis of the deposited data

Results flagged for a closer look

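In 80 groups of 4 mice (40 named genes, 2 groups each), 5 had a highest or lowest mouse whose gap to its neighbour exceeded the 95% critical value of Dixon's test; chance alone flags about 1 in 20 groups. For Arnt, control replicate 1 stood at 38.1 above the other control mice, which had 34.9 to 35.0. For Tiparp, MOCA replicate 3 stood at 10.8, below 12.5 to 12.7 in the other MOCA mice, and for Srxn1 the same mouse stood at 31.4, above 25.4 to 26.4. For Gstm1, control replicate 2 stood at 1954, above 1402 to 1461 in the other control mice. For Fkbp5, MOCA replicate 1 stood at 80.6, above 58.0 to 60.1 in the other MOCA mice.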

How the results depend on the processing

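Over 21 other settings none of the 10 sensors and partners was called in any, and the count of called partner and other receptor genes stayed 0. Of 210 recomputed log2 fold changes of the 10 genes, 204 kept their sign and their side of the threshold, and 6 turned in sign, each without a call. These were Nr1i3 without MOCA replicate 2 (0.046), Nr1i2 without MOCA replicate 1 (-0.045), without MOCA replicate 2 (-0.015) and without control replicate 1 (-0.040), and Mafg with columns rescaled to equal sums (0.015) and without control replicate 3 (0.023). With each mouse left out, the values ran from -0.17 to 0.046 for Nr1i3, from -0.045 to 0.10 for Nr1i2 and from -0.071 to 0.023 for Mafg. They ran from 0.043 (without control replicate 2) to 0.20 for Ahr, from 0.023 (without control replicate 1) to 0.15 for Bach1, from -0.16 to -0.033 (without MOCA replicate 3) for Nr3c1 and from 0.0023 (without control replicate 1) to 0.059 for Keap1, none of them called. The 80 calls over all genes (48 higher, 32 lower) became 169 with equal column sums (131 higher, 38 lower), 92 with upper quartile scaling (46 higher, 46 lower) and 425 with DESeq2, and 29 to 77 when 1 mouse was left out. The 8 called targets became 5 without an eBayes trend, 17 with DESeq2, and 3 to 8 when 1 mouse was left out. Without MOCA replicate 4 there were 3 and without control replicates 1, 3 and 4 there were 4 each; the cause was not tested. With the replicate block 30 genes and 5 targets were called. The labels of same-numbered mice share only the number. Deviations of same-numbered mice had correlations of -0.0735 to 0.0360, and none of the 4 MOCA mice correlated best with its own number. With 4 mice per group these correlations cannot show whether same-numbered mice shared a cage, age or batch, which was not tested. Depth limits little here, as the lowest member had 336 reads in its shallowest library.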

Other observations

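Ratios within a liver do not depend on the scaling of the columns, and most of those formed set an activator against a restraint or a partner. The ratio of Nfe2l2 to Keap1 was 1.57, 2.00, 1.85 and 1.55 in MOCA replicates 1 to 4, against 1.57, 1.51, 1.63 and 1.48 in control replicates 1 to 4. The ratio of Nfe2l2 to Bach1 was 1.28, 1.85, 1.71 and 1.55 in MOCA livers, against 1.61, 1.43, 1.41 and 1.42 in control livers, so that the lowest and the 2 highest livers were MOCA livers. The ratio of Ahr to Arnt was 1.94, 1.93, 1.93 and 1.81 in MOCA livers, against 2.23, 1.76, 2.31 and 2.14 in control livers, with the MOCA livers closer together. Against Mafg, Nfe2l2 stood at 4.19, 5.37, 4.61 and 4.05 in MOCA livers and at 3.73, 4.125, 3.59 and 3.89 in control livers. Here only MOCA replicate 4 and control replicate 2 kept the groups from separating. Rxra to Nr1i3 was 4.78 ± 0.872 in MOCA livers and 4.95 ± 0.429 in control livers. Nr1i3 to Nr1i2 was 1.67 ± 0.313 and 1.76 ± 0.292 in the same order. These ratios were chosen after the values were seen, overlap between the groups and were not tested.

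Some genes of the listed pathways that no rule named had groups without overlap and no call with limma. These were chosen after their values were seen. Groups did not overlap in 10.5% of all tested genes. The same held for 1 of 18 glucocorticoid receptor targets, 4 of 34 partners and co-regulators and 10 of 36 NRF2 targets. Klf9, a target of the glucocorticoid receptor, had 114 ± 18.8 in MOCA livers and 145 ± 8.79 in control livers (limma adjusted p = 0.149). Of the co-regulators, Ncor1, a corepressor of nuclear receptors, had 241 ± 6.26 in MOCA livers and 270.1 ± 15.2 in control livers (limma adjusted p = 0.247), and the acetyltransferase Crebbp had 138 ± 13.3 in MOCA livers and 159 ± 9.72 in control livers (limma adjusted p = 0.227). Gsta2, an alpha-class glutathione S-transferase, had 41.1 ± 5.20 in MOCA livers and 23.7 ± 6.19 in control livers (limma adjusted p = 0.0617, DESeq2 adjusted p = 0.000814).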
